A study of Mus musculus with 4 samples.

Results

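The neutrophil granule genes examined here are 10 genes, measured by 12 of the 39429 probes on the array. They were taken as all probes named in the array files for *Mpo*, *Elane*, *Prtn3* and *Ctsg*, which encode proteins of the primary granules, and for *Ltf*, *Camp*, *Ngp*, *S100a8*, *S100a9* and *Ly6g*, which come on later in the lineage. All 12 probes differ in sequence, and *Mpo* and *Camp* have 2 each.

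RNA came from mouse fetal liver Lin- cells, that is, cells depleted of those carrying lineage markers, and all of them lacked *Ebf1*, a transcription factor of early B cells. Cells of 2 samples were infected with a retrovirus without an insert (EMPTY) and cells of the other 2 with a retrovirus carrying *Mir195* (Mir195), and both were kept, per the methods on OP9 stroma cells, in medium to which IL-7, Flt-ligand and SCF had each been added at 10 ng/mL. Each sample was hybridised to 1 array with a single dye. The comparison asks what ectopic *Mir195* does to gene expression in these cells, here for genes of the neutrophil lineage. The labels do not say that the 2 samples of a virus came from separate cultures or litters, so p values measure only the spread between these samples. Whether infected cells were separated from uninfected cells or from stroma before RNA isolation is not given in the sources used here. There is no array of cells with intact *Ebf1*.

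Neutrophils form their granules in sequence. Promyelocytes fill the primary (azurophil) granules with myeloperoxidase and serine proteases, myelocytes and metamyelocytes then make the secondary granules with lactoferrin and cathelicidin, and the S100 proteins and LY6G build up as the cells mature. For this reason the primary granule genes mark early granulocyte precursors, and are also transcribed at a low level in multipotent progenitors, whereas the later genes mark committed and mature neutrophils.

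The mature 5p strand of the mouse microRNA of this name is given first because *Mir195* is what the viruses differ by. Per the methods, the insert was a genomic segment around *Mir195* from RS4;11, a human leukaemia line, so it holds the hairpin and its flanks and was not taken from the mouse locus. The mouse strand shown here is encoded at chr11:70235062-70235082 on the plus strand (GRCm38.p6, RefSeq), and capitals mark its seed, bases 2 to 8.
mmu-miR-195a-5p: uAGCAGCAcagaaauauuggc

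Each probe is a 60-mer, and some of the sequences are shown here. The probes below are for an enzyme of the primary granules with a signal on every array (*Mpo*, second probe) and for a calprotectin subunit without one (*S100a8*).
*Mpo*: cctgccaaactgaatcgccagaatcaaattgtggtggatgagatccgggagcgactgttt
*S100a8*: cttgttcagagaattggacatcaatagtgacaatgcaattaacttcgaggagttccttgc
The *Ly6g* probe is shown with the probe on the array that has the longest run of bases in common with it. Capitals mark the run of 28 bases that they share.
*Ly6g*: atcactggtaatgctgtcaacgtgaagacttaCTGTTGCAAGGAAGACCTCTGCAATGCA
ENSMUST00000089689: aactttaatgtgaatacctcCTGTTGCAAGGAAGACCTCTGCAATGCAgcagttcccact
The second of these is named only by its transcript in the files. For the other 11 probes, the longest run in common with a probe of another gene was 12 to 17 bases. Both *Camp* probes read the same stretch of the transcript, overlapping by 50 bases with 2 mismatches between them, so they are no independent measurements. The *Mpo* probes had no run of 12 bases in common. Of the 12 probes, 10 carried the accession of a transcript in RefSeq, and the second *Mpo* probe and the *Ly6g* probe were named from the array files. The *Ly6g* probe carried the accession of a predicted transcript model and was not matched to the genome, so its gene rests on the name given by the array.

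Each array carried 43020 spots other than controls, and 0 were saturated. Per array 23678 to 24700 probes passed as well above background, and the median ratio of spot to local background was 2.81 to 3.17. A probe was tested if it passed with either virus on both of its arrays and none of its spots was an outlier, which left 23722 probes. Of these, 0 (0%) passed an adjusted p of 0.05 by limma, 1978 (8.34%) had an unadjusted p below that value, and the median difference was 0.01 on the log2 scale. For 23.4% of the probes both Mir195 values exceeded both EMPTY values, and for 14.4% both were lower. For the labelled stage, an early B cell around the pro-B stage, 9 of the 11 early B cell markers on the array were well above background on all 4 arrays, and *Cd79a*, which encodes a signalling chain of the B cell receptor, on the 2 EMPTY arrays alone. All 4 arrays lie on the same slide with the EMPTY arrays in the first positions, so position and virus cannot be told apart. The smallest two-sided p that an exact permutation of 2 against 2 arrays allows for a single gene is 0.333.

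Detection was not equal for the 2 groups of genes. All 4 primary granule genes were well above background on all 4 arrays, against 3 of the 6 later genes. *Ngp*, *S100a8* and *S100a9* were well above background on 0 of 4 arrays, with either virus. Each of the 12 probes was above background on either all 4 arrays or 0 of them.

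**Figure D1:**
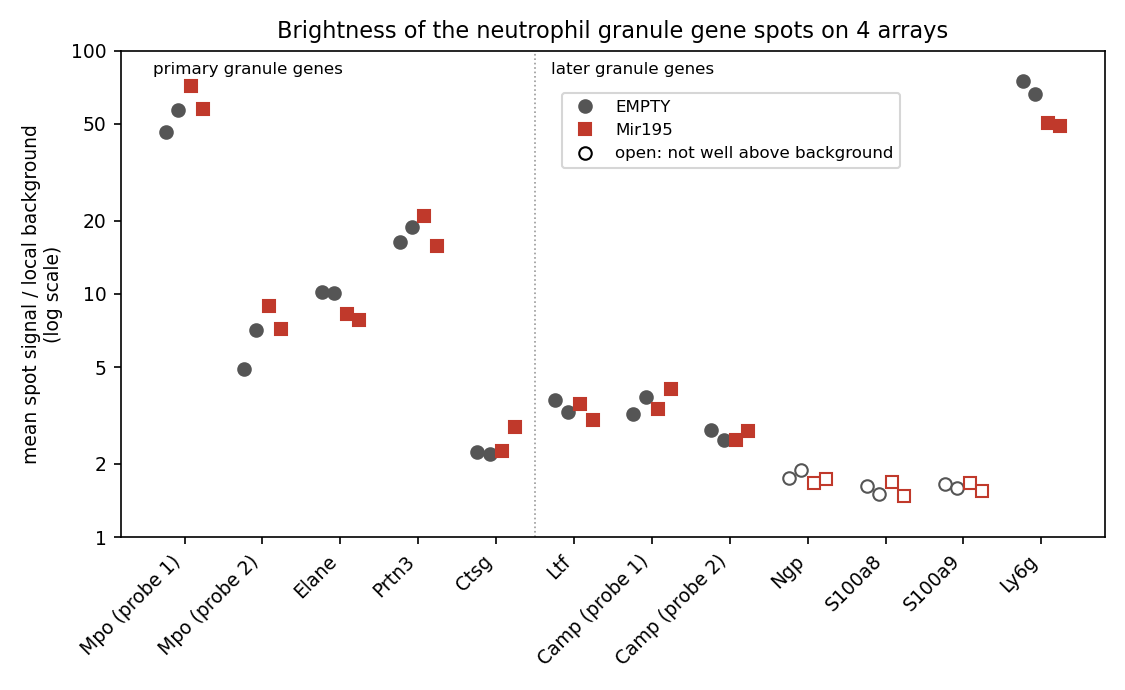
Mean spot signal divided by the local background (log scale) for the 12 probes of the granule genes, 1 point per array, with EMPTY arrays as circles and Mir195 arrays as squares. Open symbols mark spots not well above background. The 3 probes of *Ngp*, *S100a8* and *S100a9* lie between 1.47 and 1.88 on all arrays and are open, and the other 9 are filled on all 4 arrays. The ratios are not scaled between arrays.

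*Mpo* encodes myeloperoxidase, the haem enzyme that makes hypochlorous acid from hydrogen peroxide and chloride. Values are log2 signals from which the 75th percentile of the same array was subtracted, so that 0 stands for the signal of the probe at that rank. The first *Mpo* probe measured 0.22 and 0.83 with EMPTY and 1.35 and 1.15 with Mir195. Both Mir195 arrays were above both EMPTY arrays, but the EMPTY arrays stood 0.61 apart. The second probe, elsewhere in the transcript, measured -2.80 and -2.23 with EMPTY and -1.64 and -1.96 with Mir195, again without overlap. On both probes EMPTY replicate 1 was the lowest array and Mir195 replicate 1 the highest.

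The difference was 0.72 ± 0.24 (SE) for the first probe, a 1.65-fold higher signal with a 95% confidence interval of 0.10 to 1.34, and 0.71 ± 0.24 for the second. Neither passed the test, with an adjusted p of 0.556 and 0.558 by limma. The unadjusted p of these probes was 0.0316 and 0.034 in the same limma fit, and they were the only 2 of the 9 tested granule probes with an unadjusted p below 0.05, beside 8.34% of all probes. Without EMPTY replicate 1 the differences were 0.41 and 0.43, and without EMPTY replicate 2 they were 1.02 and 0.996.

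*Elane* encodes neutrophil elastase, a serine protease of the primary granules that is mutated in inherited neutropenias. Its probe gave -2.01 and -1.98 with EMPTY and -1.99 and -2.20 with Mir195. These values overlapped, and 3 of the 4 were within 0.03 of each other. The difference was -0.10 ± 0.13 (adjusted p = 0.914, limma), with an interval of -0.45 to 0.24. The interval reached neither a 2-fold rise nor a 2-fold fall, but it covers only the spread between these arrays.

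*Prtn3* encodes proteinase 3, the elastase-like protease that is the target of anti-neutrophil antibodies in vasculitis. Its signal was -1.12 and -0.70 with EMPTY and -0.37 and -0.82 with Mir195. The second Mir195 array lay between the 2 EMPTY arrays. At 0.32 ± 0.23 (adjusted p = 0.827, limma), the difference was smaller than the distance between the arrays of either virus, which was 0.42 for EMPTY and 0.44 for Mir195. *Prtn3* and *Elane* are next to each other in the genome, and their differences were 0.32 and -0.10.

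*Ctsg* encodes cathepsin G, a protease with chymotrypsin-like activity. Its spot was close to background, at 2.24, 2.19, 2.26 and 2.85 times the local background on EMPTY replicates 1 and 2 and Mir195 replicates 1 and 2. Its log2 values in that order were -5.97, -5.62, -5.46 and -4.20. Mir195 replicate 2 stood 1.26 above Mir195 replicate 1, whereas the EMPTY arrays stood 0.34 apart.

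The difference in *Ctsg* was 0.96 ± 0.44, with an interval of -0.19 to 2.11 and an adjusted p of 0.668 by limma. It rested on Mir195 replicate 2. Without that array the difference was 0.33, and without Mir195 replicate 1 it was 1.59 with an adjusted p of 0.0155 by limma, the only granule gene past the threshold in any fit, in a fit that called 900 probes. On the same array the stroma markers were high. Of the 10 stroma markers, 7 were tested. The log2 of their summed signals was 3.29 and 3.42 on the EMPTY arrays, 3.24 on Mir195 replicate 1 and 4.12 on Mir195 replicate 2. *Sparc*, the brightest, weighs most in this sum. The median over the 7 genes, relative to the EMPTY mean, was -0.107 on Mir195 replicate 1 and 0.794 on Mir195 replicate 2. *Lum* and *Pdgfra*, a small proteoglycan and a receptor of stroma cells, were well above background on 0 of 4 arrays. The part of stroma RNA in the *Ctsg* value was not tested.

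**Figure D2:**
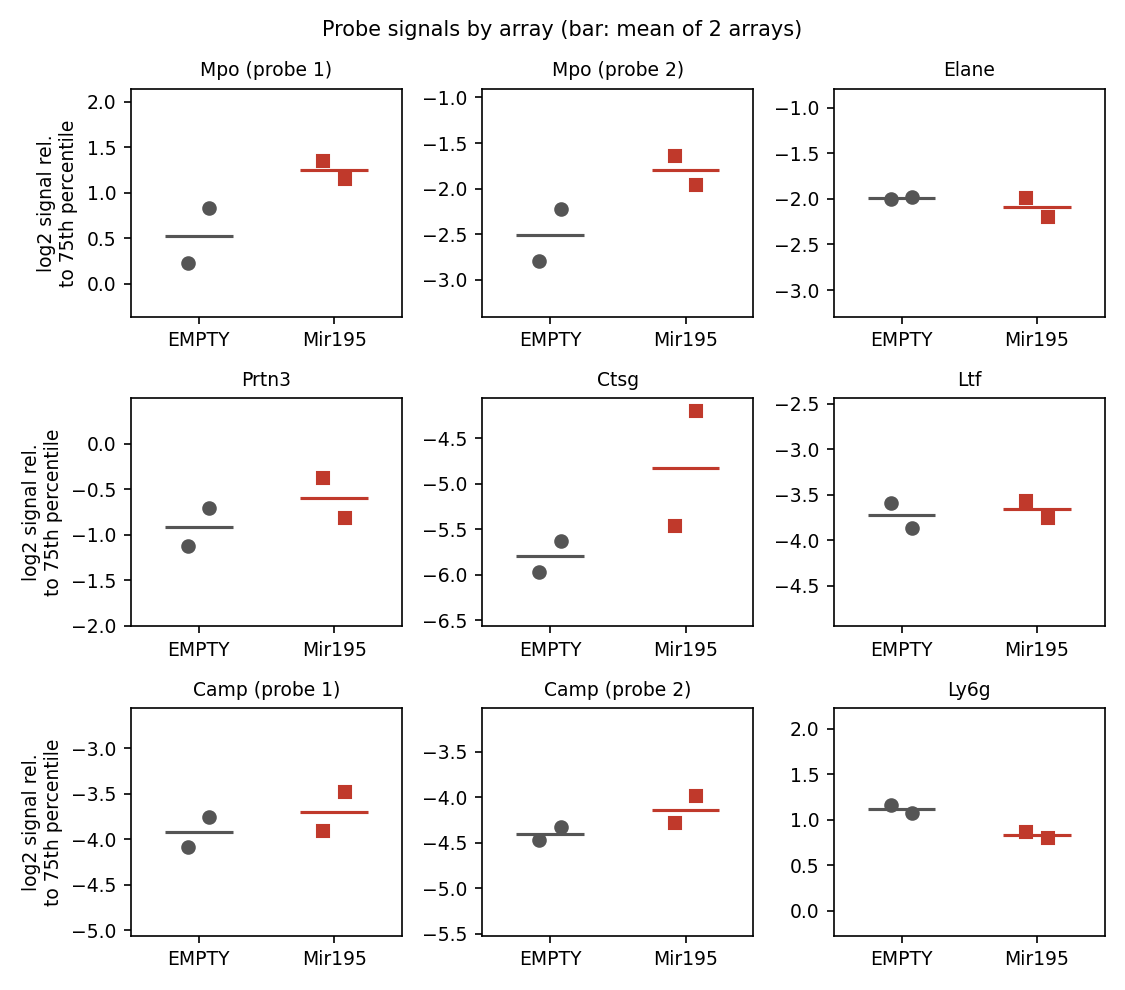
Log2 signal minus the 75th percentile of its array for the 9 granule gene probes above background, 1 panel per probe with its own axis of equal height (2.5 log2 units). Circles are EMPTY arrays, squares Mir195 arrays, and the bars are means of 2 arrays. Both *Mpo* probes, *Ctsg* and the second *Camp* probe show both squares above both circles, *Ly6g* shows both below, and the other 4 overlap. Over all 23722 tested probes, both Mir195 arrays were above both EMPTY arrays for 23.4% and below them for 14.4%.

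*Ltf* encodes lactoferrin, the iron-binding protein of the secondary granules. It measured -3.59 and -3.86 with EMPTY and -3.57 and -3.75 with Mir195. The 4 values interleaved. The difference was 0.06 ± 0.16 (adjusted p = 0.957, limma), and its direction turned when the arrays were scaled by their medians (-0.03) or brought to the same distribution by quantile normalization (-0.02).

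*Camp* encodes cathelicidin, whose C-terminal peptide kills bacteria. The first probe measured -4.09 and -3.75 with EMPTY and -3.92 and -3.49 with Mir195, which overlap. The second measured -4.47 and -4.33 against -4.29 and -3.99, with both Mir195 arrays above. The differences were 0.22 ± 0.21 and 0.26 ± 0.16, and the adjusted p by limma was 0.881 and 0.784. Without Mir195 replicate 2, the highest array on both probes, they were 0.0037 and 0.11.

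*Ngp*, the neutrophilic granule protein related to cystatins and cathelicidins, had a mean signal of 63.1 and 63.8 with EMPTY and 61.8 and 60.6 with Mir195. The 153 negative control spots of each array, which match no mouse transcript, had medians of 57.4 to 58.7. *Ngp* was brighter than 96.1% to 97.4% of them, and it was not well above background by the criterion of the scanner software.

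*S100a8* and *S100a9* encode the subunits of calprotectin, which mature neutrophils and monocytes carry in large amounts in the cytosol. The signal of *S100a8* was 60.1 and 58.2 with EMPTY and 59.3 and 55.9 with Mir195, which is brighter than 25.5% to 77.8% of the negative control spots. That of *S100a9* was 62.0 and 62.5 with EMPTY and 61.7 and 58.8 with Mir195, or brighter than 73.9% to 96.1%. Both probes lay within the range of the negative controls on all 4 arrays, so no fold is given for them or for *Ngp*. *Ctsg* and the second *Camp* probe, though flagged well above background, also lay within that range on EMPTY replicate 1. There they were brighter than 98.7% and 99.3% of the negative control spots.

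*Ly6g* encodes the glycosylphosphatidylinositol-anchored surface protein by which mature mouse neutrophils are stained. Its spot was 49.1 to 75.2 times as bright as the local background. The signal was 1.16 and 1.08 with EMPTY and 0.87 and 0.80 with Mir195. Both Mir195 arrays were below both EMPTY arrays, and the arrays stood 0.08 apart with EMPTY and 0.07 with Mir195.

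The difference in *Ly6g* was -0.28 ± 0.12, a signal 0.823 times that of EMPTY, with an interval of -0.59 to 0.03. It did not pass the test, with an unadjusted p of 0.0663 and an adjusted p of 0.639 by limma, and was -0.38 to -0.24 under all alternatives run. In these cells a signal at the *Ly6g* probe was present with *S100a8*, *S100a9* and *Ngp* not well above background. The probe that shares the 28 bases shown above measured 3.13 and 2.95 with EMPTY and 2.87 and 2.65 with Mir195, with a difference of -0.28 (adjusted p = 0.719, limma). Whether the *Ly6g* probe reads that gene, and how much of its signal comes from transcripts of related genes, was not tested. Since the RNA is from many cells together, fewer cells that express a gene and less RNA per cell cannot be told apart, for *Ly6g* and for every gene here.

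**Figure D3:**
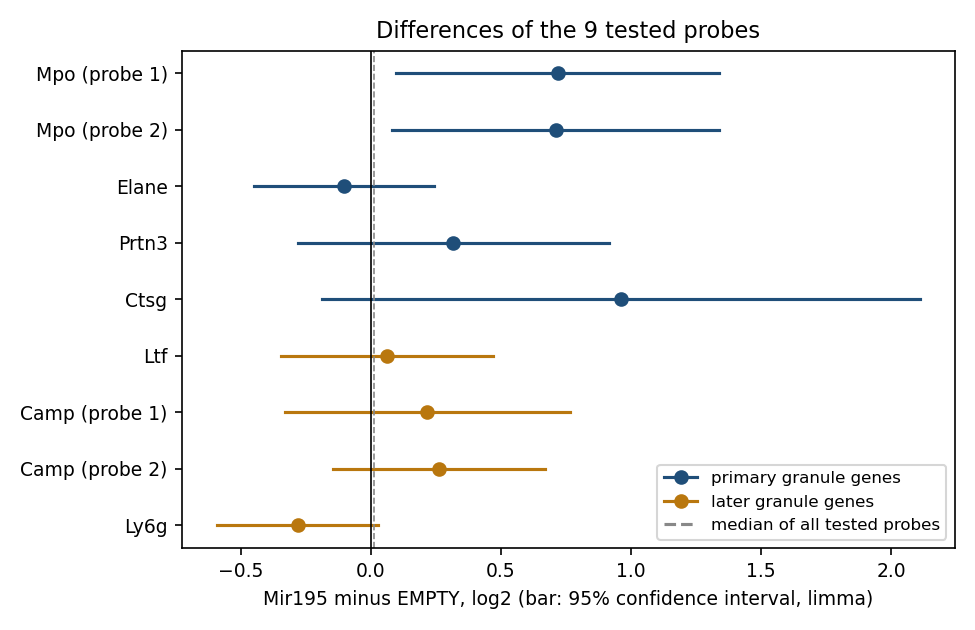
Mir195 minus EMPTY on the log2 scale for the 9 tested granule gene probes, with the 95% confidence interval of limma (2 arrays per virus). The dashed line is the median of all 23722 probes, 0.01. The intervals of both *Mpo* probes exclude 0 before adjustment, and those of the other 7 include it.

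Set side by side, the primary genes had a median difference of 0.52, with *Mpo*, *Prtn3* and *Ctsg* higher and *Elane* lower, and the 3 later genes that could be tested had a median of 0.06, with *Ltf* and *Camp* higher and *Ly6g* lower. Over all probes the median was 0.01, and 53.1% were above 0. None of the granule genes was called, like 0% of all probes. Relative to the mean of the EMPTY arrays, the mean over the primary genes was -0.17 and 0.17 with EMPTY and 0.42 and 0.53 with Mir195. For the later genes it was -0.03 and 0.03 with Mir195, and nearer to 0 with EMPTY. The medians differed by 0.45 between the groups of genes, and the spread of this difference between arrays of the same virus was 0.292 (pooled SD). The primary median stayed between 0.26 and 0.78 under all alternatives, whereas the later median changed its sign under some of them.

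Further genes of the same compartments had medians near that of all probes. Of 8 further genes of primary granules and promyelocytes, 6 were tested, 3 were higher and 3 lower, and the median was -0.03. *Ctsc*, the dipeptidyl peptidase that activates elastase, proteinase 3 and cathepsin G, measured 1.55 and 1.34 with EMPTY and 1.28 and 1.40 with Mir195 (difference -0.10, adjusted p = 0.916, limma). *Cst7*, which encodes cystatin F, a regulator of such peptidases, differed by 0.16 (adjusted p = 0.862, limma), and *Ms4a3*, a gene of granulocyte and monocyte progenitors, was well above background on 0 of 4 arrays. Of 22 further genes of the later granules, 12 were tested, with 5 higher, 7 lower and a median of -0.03. Another 7 were above background on no array, among them *Mmp9*, the gelatinase of the tertiary granules, *Retnlg*, *Chil3* and *Cd177*. *Lrg1*, a glycoprotein of the later granules, differed by 0.48 and *Pglyrp1*, a peptidoglycan-binding protein, by -0.58, both without overlap, with an adjusted p of 0.595 and 0.788 by limma.

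The inhibitors of the granule proteases had a median of -0.27 over 5 tested genes of 8, 4 of them lower, and of 0.02 without Mir195 replicate 1. *Serpinb1a*, the cytosolic inhibitor of elastase, proteinase 3 and cathepsin G, measured 4.05 and 3.82 with EMPTY and 3.61 and 3.72 with Mir195. Both Mir195 arrays were below both EMPTY arrays, with a difference of -0.27 ± 0.14 (adjusted p = 0.734, limma). The 6 subunits of the NADPH oxidase, which supplies the superoxide that feeds myeloperoxidase, were all above background and all lower, with a median of -0.10. Of these, *Rac2* differed most among those without overlap, by -0.22 (adjusted p = 0.812, limma). The 6 differences ranged from -0.22 to -0.02, and without Mir195 replicate 2 only 4 of the 6 were lower.

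Receptors of neutrophils were detected in part. Of 15, *Cxcr1*, *Fpr1*, *Fpr2*, *Clec5a* and *C5ar1* were above background on no array, and the 9 tested had a median of 0.00, with *Trem1* at 0.44 and *Csf2rb*, the common beta chain of the GM-CSF, IL-3 and IL-5 receptors, at -0.28 as the largest differences without overlap (adjusted p = 0.738 and 0.779, limma). *Csf3r*, the receptor of the granulocyte growth factor G-CSF, measured 5.60 and 5.94 with EMPTY and 5.90 on Mir195 replicate 1, and its spot on Mir195 replicate 2 was an outlier, so it was not tested.

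Transcription factors of the granulocyte lineage had a median of 0.02 over 9 tested genes of 10, with 5 higher and 4 lower. With 1 array left out, the median ranged from -0.15 without Mir195 replicate 1 to 0.12 without EMPTY replicate 2. *Cebpa*, needed for the step to granulocyte and monocyte progenitors, differed by 0.03, *Cebpb* by 0.07 and *Cebpd* by -0.18. *Cebpe*, which drives the secondary granule genes, was near background. It measured -5.26 and -4.94 with EMPTY and -5.05 and -5.84 with Mir195, was well above background on 3 of 4 arrays, and differed by -0.35 ± 0.30 (adjusted p = 0.866, limma). *Gfi1*, a repressor required for neutrophils, was higher on both Mir195 arrays by 0.17 (adjusted p = 0.836, limma). For *Spi1*, *Runx1* and *Myb*, which act on the primary granule promoters, the differences were -0.09, 0.02 and -0.01. *Klf4* differed by 0.56 ± 0.63 and was high on Mir195 replicate 2 alone, at 1.74 against -0.09 to 0.54. *Cbfb* had an outlier spot and was not tested.

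**Figure D4:**
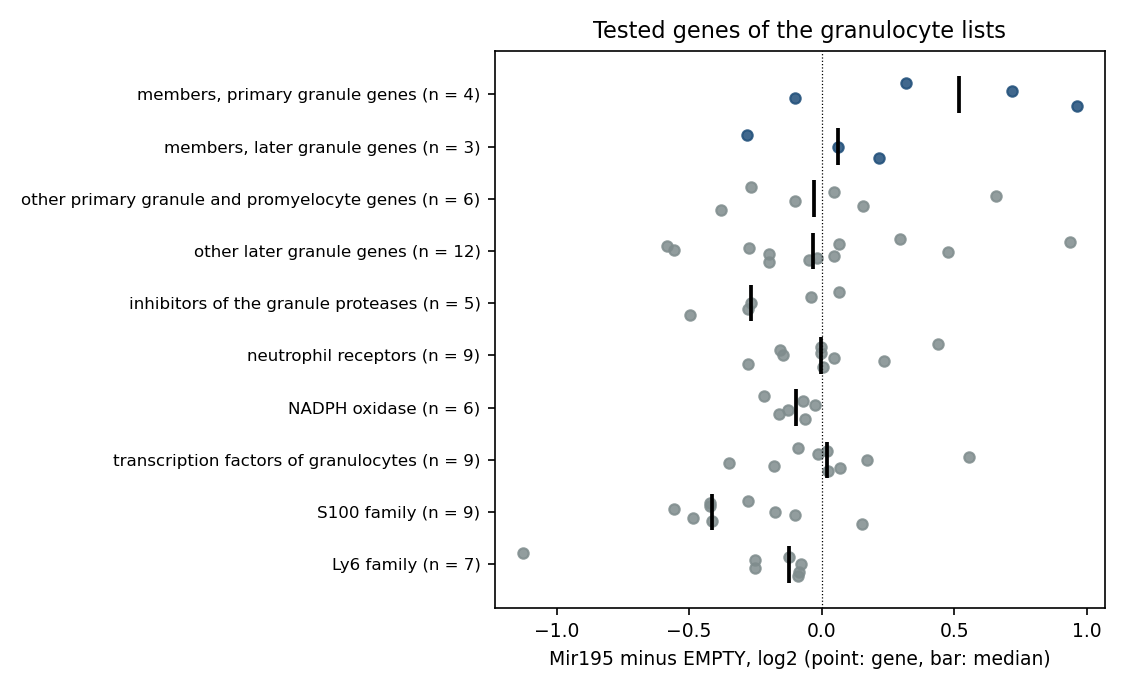
Mir195 minus EMPTY on the log2 scale for each tested gene of the granulocyte lists, with 1 point per gene (its probe of highest mean signal) and a bar at the median of the list. No point passed the adjusted threshold. The primary granule genes have a median of 0.52, the S100 family of -0.41, and the other lists lie between -0.27 and 0.06.

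Calprotectin subunits and LY6G belong to gene families that lie in clusters, and their relatives were counted next. Of the other S100 genes, 9 of 10 were tested and 8 were lower with Mir195, with a median of -0.41. In 5 of the 9 both Mir195 arrays were below both EMPTY arrays, beside 14.4% of all probes, and 4 had an unadjusted p below 0.05, beside 8.34% of all probes, while 0 were called by limma. *S100a3* had the largest difference, with -4.26 and -4.30 for EMPTY against -4.85 and -4.83 for Mir195, or -0.56 (adjusted p = 0.53, limma). The median of the family was between -0.51 and -0.16 under the alternatives run for lists. *S100a8* and *S100a9* were outside this comparison for lack of signal.

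In the Ly6 family all 7 tested genes were lower, with a median of -0.12, and 4 of them had no overlap between the viruses, beside 14.4% of all probes with both Mir195 arrays lower. *Ly6f*, near *Ly6g* in the genome, differed by -0.25 (adjusted p = 0.76, limma), close in size to *Ly6g* at -0.28. *Ly6a*, the progenitor antigen Sca-1, differed by -0.09. When 1 array was left out, 5 to 7 of the 7 genes were lower, and 6 with normexp. No Ly6 gene was called.

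Genes next to a member in the genome gave these values. *Lpo* and *Tspoap1*, on either side of *Mpo*, differed by 0.13 and 0.34 (adjusted p = 0.891 and 0.826, limma). *Plppr3*, next to *Prtn3*, differed by 0.37 and was higher on both Mir195 arrays (adjusted p = 0.679, limma). *Cfd*, which encodes complement factor D and follows *Elane*, was well above background on 3 of 4 arrays and differed by -0.28 (adjusted p = 0.908, limma). *Ccrl2*, a chemerin-binding receptor next to *Ltf*, measured -3.01 and -3.16 with EMPTY and -3.50 and -3.65 with Mir195, a difference of -0.49 ± 0.13 (adjusted p = 0.53, limma). Its neighbour *Ltf* differed by 0.06. *Cdc25a* and *Nme6*, beside *Camp*, and *Klhl18* and *Ptpn23*, beside *Ngp*, differed by at most 0.10 in size. *Mcpt8*, beside *Ctsg*, and *S100a7a* and *Pglyrp4*, beside the calprotectin genes, were above background on 0 of 4 arrays. *Gzme*, on the other side of *Ctsg*, differed by 0.02 on the probe above background on all 4 arrays.

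The 250 bases before the start of each member gene were searched on both strands for letters bound by factors of the lineage, to show what the members share outside the array. All 10 members had a window in the RefSeq table (GRCm38.p6), *Ly6g* 2 of them that overlap. The letters GAGGAAGT, bound by PU.1 (the product of *Spi1*), were chosen after the windows of *Prtn3* and *Elane* had been read. They were found for 5 members, *Mpo*, *Elane*, *Prtn3*, *S100a8* and *Ly6g*, and in 2.44% of all 32851 windows. The matches in *Prtn3* and *Elane* were given by this choice, so only the other members can be set beside that share. For the 3 primary granule genes the 30 bases around the match are shown, with the match in capitals.
*Mpo*, chr11:87793549-87793578, plus strand: gtggagagagaGAGGAAGTtgcctttgtcc
*Elane*, chr10:79886216-79886245, plus strand: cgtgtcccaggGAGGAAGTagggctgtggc
*Prtn3*, chr10:79879561-79879590, plus strand: caaactggaagGAGGAAGTgggacccacag
The matches begin at position -224 in *Mpo*, -85 in *Elane* and -95 in *Prtn3*, counted from the gene start. TTNNGNAA, the letters of the C/EBP factors, was found for 5 members, all of them later genes (*Ltf*, *Ngp*, *S100a8*, *S100a9* and *Ly6g*), and in 36.9% of all windows. The MYB letters AACNGCC were present for 3 members and in 9.83% of windows. For the RUNX letters TGTGGT it was 2 members and 14.1%. The TATA box was searched as TATAAA, with 3 members and 12.4%. Matches of different motifs shared no bases in the members' windows. Members with and without the PU.1 letters were in both groups of genes, and among the 3 shown here *Mpo* differed by 0.72, *Prtn3* by 0.32 and *Elane* by -0.10.

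Markers of other cells in the cultures were counted to place the granule genes. Among monocyte and macrophage markers, 9 of 11 were above background on all 4 arrays, with a median of 0.04 over 10 tested. *C1qa*, above background on the 2 Mir195 arrays alone, differed by 1.43 (adjusted p = 0.53, limma). It was tested only because it passed with Mir195, where it is high, and its EMPTY values were not well above background. The size of its difference is therefore not to be read as a fold. Among those above background on all 4 arrays the largest differences without overlap were 0.39 for *C1qb* and -0.39 for *Ccr2*. Of 7 eosinophil markers 3 were tested, with *Prg2* (major basic protein) at 0.30 and *Siglecf* at -0.35, and *Epx*, the eosinophil peroxidase, was above background on 0 of 4 arrays. Of 8 mast cell and basophil markers 2 were tested, and *Cpa3* differed by -0.65. Erythroid markers had a median of -0.43 over 4 and stroma markers of 0.31 over 7 with *Pdgfrb* at 0.31, which without Mir195 replicate 2 became 0.01 and -0.11. The median was -0.01 over 10 early B cell markers, with *Cd79b* at 1.18 and *Dntt* at -0.55, and 0.15 over 6 progenitor markers, with *Kit* at 0.27 and *Ly6a* at -0.09. All 8 T and NK markers were lower, with a median of -0.29 and *Cd3g* at -0.80. With 1 array left out 6 or 7 of the 8 were lower, with medians of -0.84 to -0.17, and with quantile normalization 7. No gene of these lists was called. Monocytes and macrophages also express *Mpo* as precursors and the calprotectin genes. The log2 of the summed signals of their markers was 6.55 and 6.62 with EMPTY and 6.61 and 6.34 with Mir195. *Irf8* and *Ly86*, the brightest, weigh most in this sum, and on Mir195 replicate 2 they measured 5.65 and 4.57. With EMPTY they measured 5.81 to 5.93 and 4.88 to 4.93. The mean over the monocyte and macrophage markers, relative to the EMPTY mean, was -0.01 and 0.01 with EMPTY and 0.10 and 0.22 with Mir195. This mean includes *C1qa*, and the median was 0.003 and 0.006 with Mir195. Their part in the *Mpo* values was not tested.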

How the data were processed

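RNA of 4 samples was labelled with Cy3 and hybridised to Agilent mouse arrays. The authors deposited spot intensity values from the scanner software, background-subtracted and detrended within the array, and a table of log2 values per probe, normalised to the 75th percentile. Processing notes name Feature Extraction 11.5.1.1, and the file header gives 9.1.3.1. From the deposited intensity, spots of a probe were averaged as log2 and the 75th percentile of the array was subtracted. These values correlated with the authors' log2 table at r = 0.998 on every array. A probe counted as above background where the software flagged most of its spots. Outlier spots (21 to 65 per array) were left out. Groups came from sample titles.

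Differences were fitted in R 4.3.3 by limma 3.58.1, with lmFit and eBayes (data.table, version 1.17.8), two-sided, adjusted by Benjamini and Hochberg over 23722 probes at 0.05. Sequences and figures were handled in Python with matplotlib. Tested on simulated data with 200 changed probes, 72% of 4-fold and 1.4% of 2-fold changes were called. On average over 5 rounds, 6.2 unchanged probes were called as well. The simulated spread did not depend on the brightness of a probe. For a list, the brightest tested probe stood for a gene. Of 39429 probes, 26055 were named by RefSeq accession and the others from the array.

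The members and lists were chosen with earlier results of these data known, and lists were not tested as sets. Named genes are the 10 members, the transcription factors, *Ctsc*, *Serpinb1a*, *Csf3r*, the genomic neighbours and, per other list, the genes with the largest rise and fall without overlap among those above background on all arrays. Genes named as not detected, *Cd79a* and *C1qa* fall outside this rule and were chosen after their values were seen. Lists cover the granule genes, protease inhibitors, receptors, the NADPH oxidase, transcription factors, the S100 and Ly6 families, and markers of monocytes, eosinophils, mast cells and basophils, erythroid cells, stroma, early B cells, progenitors, and T and NK cells. Alternatives were normexp, quantile and median scaling, the authors' table, the same percentile over probes above background on all 4 arrays, 3 filters on dim probes, a trended robust eBayes, the replicate block, each array left out and the methods' t-test. The number of arrays limits the precision.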

Additional observations from a re-analysis of the deposited data

How the results depend on the processing

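All 4 primary genes, *Camp* and *Ly6g* kept the direction of their difference under all 15 alternatives, except that *Elane* was at 0.0029 without Mir195 replicate 2. Not all of these could change a direction. The filters on dim probes, the trended robust eBayes, the replicate block and the methods' t-test leave the difference of a probe as it is. Only normexp, the scalings, the authors' table and the arrays left out could turn it. *Ltf*, and with it the median of the later genes, reversed under quantile normalization (-0.0248) and median scaling (-0.0344), and also if EMPTY replicate 2 (-0.075) or Mir195 replicate 1 (-0.0256) was left out. The later median moved to 0.213 with normexp, 0.0243 in the authors' table and 0.236 with no filter on dim probes, where the 3 genes near the negative controls enter. With 1 array left out, *Ltf* ranged from -0.075 to 0.202, *Elane* from -0.207 to 0.00288 and the later median from -0.075 to 0.0504, the primary median from 0.26 to 0.775, and the primary minus later difference from 0.21 to 0.85. Over all probes, 0 were called, but 3 with median scaling and 5 with the replicate block, and 0 to 900 with 1 array left out, 900 without Mir195 replicate 1 and 3 without Mir195 replicate 2. The lone array is then assumed to vary like the pair of the other virus. Among the granule probes 0 to 1 were called, the 1 being *Ctsg* without Mir195 replicate 1. With the replicate block 0 granule probes were called (lowest adjusted p by limma 0.191), like 0 without it. Calls in other lists were not counted under the block. The labels tie no arrays of the same number, whose deviations from the mean of their virus correlated at -0.101 over probes. The crossed pairing, chosen for this value after seeing the data, called 0 probes of all and 0 granule probes. The methods' t-test gave 1133 probes at their threshold and 0 after adjustment. Scaling moved the split of probes at an unadjusted p below 0.05, from 1482 higher and 496 lower to 1112 and 807 with median scaling, which shifted the median of all probes to -0.08, to 1267 and 693 with quantile normalization, and to 3417 and 336 with normexp. The cause of these changes was not tested. The spots of *Ctsg*, *Ltf* and *Camp*, at 2.19 to 4.05 times their background, leave little room above background. In the simulation a 2-fold change was mostly missed with 4 arrays, and dim spots were not simulated apart from bright ones.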
